A study of Mus musculus with 24 samples.

Results

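The opioid receptors are a family of 4 genes: Oprm1 (the mu receptor), Oprd1 (the delta receptor), Oprk1 (the kappa receptor) and Oprl1 (the nociceptin receptor). They were taken by symbol, and all 4 were among the 33902 symbols of the snRNA-seq table. The nuclei were those of the ventral hippocampus, taken from adult males of 2 inbred mouse strains, C57BL/6J (B6) and DBA/2J (D2), 10 to 16 weeks old, which received no treatment that the labels name. Each strain had 2 snRNA-seq libraries and 2 snATAC-seq libraries, each from the pooled tissue of about 2 animals, and the deposited tables sum the counts per cell type and library (17 cell types in snRNA-seq, 15 in snATAC-seq). The series has 24 samples, of which 8 are used here, and the 16 methylation samples are not analysed here. For snRNA-seq, nuclei were sorted on NeuN, a protein of neuronal nuclei, and mixed, so the share of nuclei of each type there was partly set by the sort. For snATAC-seq they were sorted on a DNA stain without NeuN.

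Opioid receptors are membrane proteins that couple to inhibitory G proteins. When an opioid peptide or a drug such as morphine binds, the G protein alpha subunit slows adenylyl cyclase, and the released beta and gamma subunits open inwardly rectifying potassium channels and close calcium channels, so that the neuron fires and releases transmitter less easily. The mu receptor is the main target of morphine, the delta receptor binds enkephalins with high affinity, the kappa receptor binds dynorphins, and the nociceptin receptor binds nociceptin and has little affinity for classical opioids. In the hippocampus, opioid receptors are best known on interneurons, where their activation lowers GABA release. Oprm1 lies in a region of chromosome 10 long linked to differences in morphine drinking between B6 and D2 mice.

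The snRNA-seq libraries held 43048686 to 56452272 counts and 6312 to 8707 nuclei each, and the snATAC-seq libraries 90684494 to 122322471 counts and 4810 to 7776 nuclei. Depth within a cell type ran from 139713 counts (a D2 library of CR-CR) to 11352265 (a B6 library of Exc-DG) in snRNA-seq. Levels are given as CPM, a gene's counts scaled to 1000000 counts of the library in that cell type, and cell types carry the names of the deposited tables, where Exc marks excitatory neurons, Inh inhibitory neurons and NN non-neuronal cells. Of 43 pairs of a marker gene and a cell class, 35 had their highest level in a cell type of that class. The other 8 were Slc17a6, Galntl6, Csf2rb2, Lhx6 (MGE interneurons), Ndnf and Reln (Lamp5 interneurons), and Prox1 (both dentate granule cells and CGE interneurons). The microglia markers Csf1r, Cx3cr1 and P2ry12 were highest in NN-MGC, at 1187 CPM, 1302 CPM and 994 CPM. Symbols with counts in only that strain held 0.778% and 0.849% of the counts of the B6 libraries and 3.55% and 3.56% of those of the D2 libraries, and every receptor had counts in both strains.

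The genes differ in size and neighbourhood (GRCm38, GENCODE vM21). Oprm1 spans 279.693 kb on the plus strand of chromosome 10 (chr10:6758506-7038198), with start sites at 6758506 and 6788601. Oprd1 spans 33.761 kb on the minus strand of chromosome 4 (chr4:132110726-132144486), Oprk1 17.666 kb on the plus strand of chromosome 1 (chr1:5588466-5606131) and Oprl1 5.970 kb on the plus strand of chromosome 2 (chr2:181715016-181720985). Within Oprm1, 152403 bp overlap Ipcef1 and 3256 bp overlap Gm10945, both on the opposite strand. Whether reads were counted by strand is not given in the sources used here, so reads of Oprm1 and Ipcef1 in the overlap may not be told apart, and Ipcef1 is given beside the Oprm1 results.

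RefSeq windows upstream of the start site were available for 3 of the receptors, and these are shown because accessibility at their start sites was measured. Each line gives the 250 bases before the start site in GRCm38.p6, 5′ to 3′ on the strand of the gene, and capitals mark matches on either strand to GGGCGG (GC box), CANNTG (E-box), CCAAT or TATAAA. The windows were also searched for TGACGTCA (cAMP response element) and TGANTCA (AP-1 site), with no match. The main Oprm1 window is chr10:6788320-6788569 (plus strand), that of Oprd1 is chr4:132144487-132144736 (minus strand) and that of Oprl1 is chr2:181714766-181715015 (plus strand).
Oprm1: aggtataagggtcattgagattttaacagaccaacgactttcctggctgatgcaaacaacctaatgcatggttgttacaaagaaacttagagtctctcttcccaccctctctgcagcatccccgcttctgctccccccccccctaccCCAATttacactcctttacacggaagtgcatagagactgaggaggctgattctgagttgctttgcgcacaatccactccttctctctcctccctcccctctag
Oprd1: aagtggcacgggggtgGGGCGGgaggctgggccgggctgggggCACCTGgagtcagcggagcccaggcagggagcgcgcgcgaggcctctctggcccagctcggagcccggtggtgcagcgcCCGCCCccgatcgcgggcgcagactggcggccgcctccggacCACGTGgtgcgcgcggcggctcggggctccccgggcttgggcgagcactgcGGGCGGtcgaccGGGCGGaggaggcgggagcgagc
Oprl1: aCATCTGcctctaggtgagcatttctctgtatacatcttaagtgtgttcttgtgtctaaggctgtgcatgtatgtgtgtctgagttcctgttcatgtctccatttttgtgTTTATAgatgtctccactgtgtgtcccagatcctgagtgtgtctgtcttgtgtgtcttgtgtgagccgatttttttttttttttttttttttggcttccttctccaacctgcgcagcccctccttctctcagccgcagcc
The Oprd1 window was 80.0% G or C with 34 CG dinucleotides, against 50.0% and 4 in Oprm1 and 44.4% and 3 in Oprl1, while the median window of 32851 was 52.4% G or C. Oprd1 held 4 GC boxes and 2 E-boxes, Oprm1 held 1 CCAAT at position -103, and Oprl1 held 1 E-box at -249 and 1 TATAAA at -140. GC boxes were in 32.7% of all windows, E-boxes in 66.2%, CCAAT in 33.8% and TATAAA in 12.4%. A match of letters is a description and does not show that a factor binds.

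Oprm1 was the most abundant of the 4 receptor transcripts in counts, and its level differed widely between cell types. Over all nuclei it had 25408 counts, against 2985 for Oprd1, 1457 for Oprl1 and 153 for Oprk1. Long genes give more intronic reads from nuclei, and per kb of gene span the levels were 0.439 CPM for Oprm1, 0.433 for Oprd1, 0.0414 for Oprk1 and 1.18 for Oprl1. On that scale the mu and delta receptors were alike in level, the nociceptin receptor was the highest and the kappa receptor the lowest. Levels across cell types are a description with no test, since the types were clustered on transcripts of the same nuclei. In such sums a lower share of expressing nuclei and less RNA per nucleus cannot be told apart.

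**Figure D1:**
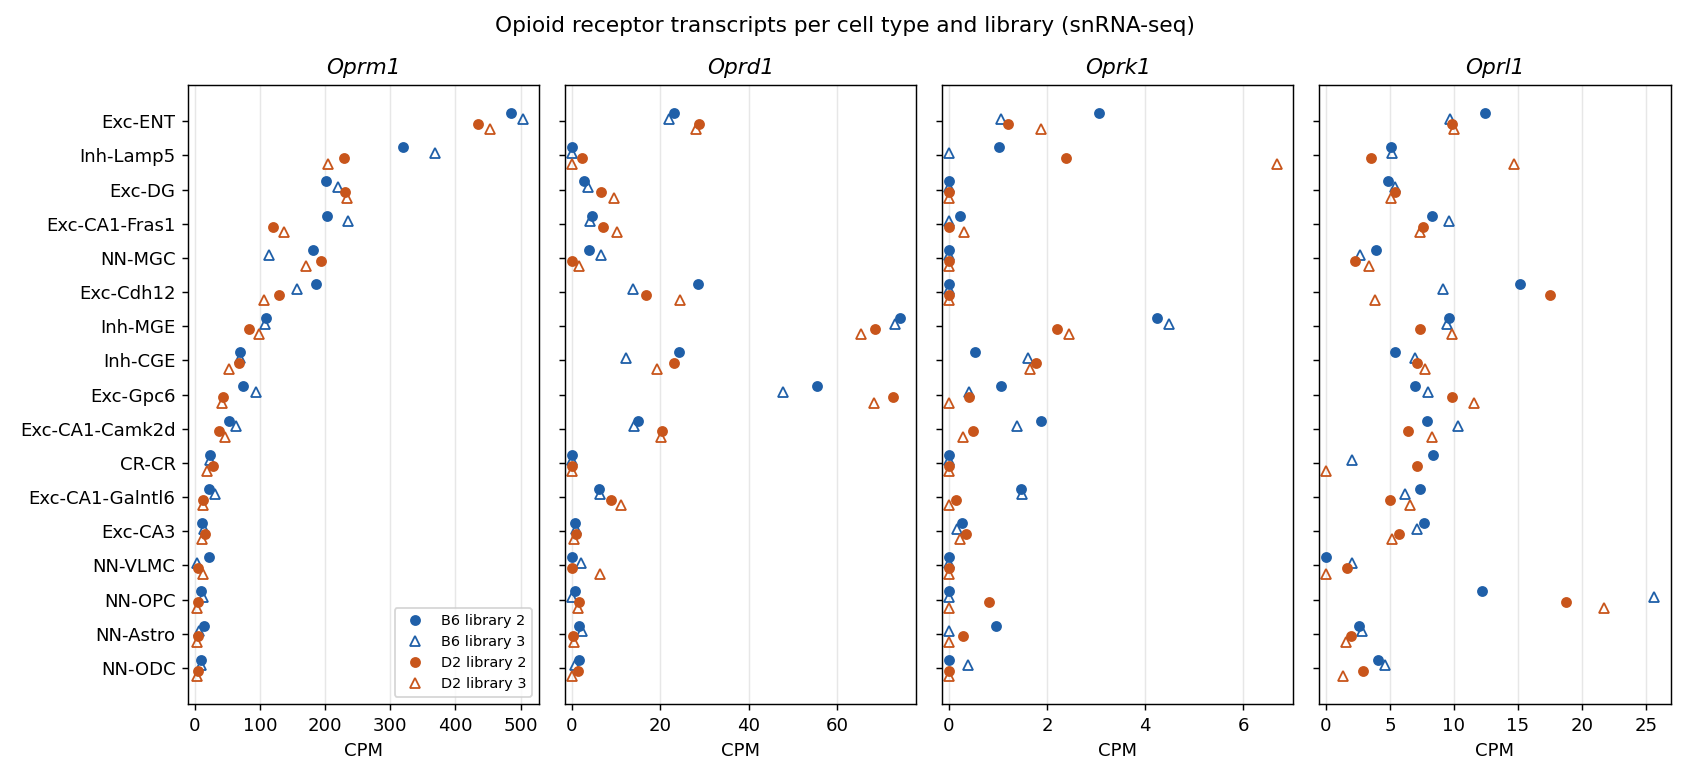
Level of each opioid receptor (CPM, linear axes that differ between panels) in the 17 snRNA-seq cell types, ordered by mean Oprm1 level. Each point is 1 library, blue for B6 and orange for D2, and there is a single panel for each receptor. Oprm1 is highest in Exc-ENT (435 to 504 CPM), Oprd1 in Inh-MGE and Exc-Gpc6, Oprk1 in Inh-MGE and Oprl1 in NN-OPC.

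Oprm1 was highest in Exc-ENT, with 485 and 504 CPM in B6 against 435 and 454 CPM in D2 (469 ± 31.0, SD, n = 4), or 394 counts per 100 nuclei. The 4 Exc-ENT libraries all lay above every library of the next type. Inh-Lamp5 followed, at 320 and 369 CPM in B6 and 230 and 205 CPM in D2 (281 ± 76.8), and then Exc-DG, at 201 and 220 CPM in B6 and 231 and 234 CPM in D2 (222 ± 14.5). Exc-CA1-Fras1 (174 ± 54.4), NN-MGC (165 ± 35.0) and Exc-Cdh12 (145 ± 34.5) came next, and from Inh-Lamp5 down to Inh-MGE the range of each type overlapped that of its neighbour. Inh-MGE (99.7 ± 11.6) did not overlap the next type, Inh-CGE (64.9 CPM), but did overlap Exc-Gpc6 (63.1 CPM, 93.7 in its highest library), and Exc-CA1-Camk2d followed at 50.1 CPM. The lowest neurons were Exc-CA1-Galntl6 (19.6 ± 8.95) and Exc-CA3 (means of 12.8 in B6 and 13.3 in D2), so that the 3 CA1 types covered a wide range. Exc-DG and Exc-ENT together held most Oprm1 counts, 33.6% and 31.0%, with 16.5% and 6.47% of the nuclei.

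Among non-neuronal cells, Oprm1 was highest in NN-MGC, whose leading markers are those of microglia. It had 181 and 114 CPM in B6 and 194 and 170 CPM in D2, while NN-Astro, NN-OPC and NN-ODC had means of 7.17, 7.57 and 7.11 CPM and NN-VLMC 11.1 CPM. Free RNA gives every nucleus some counts of neuronal genes, and Slc17a7, a transporter of excitatory neurons, was at 78.1 CPM in NN-MGC, 27.8% of its level over all neurons, and at 15.1% to 21.2% of it in the other 4. Oprm1 in NN-MGC was at 116% of its level over all neurons, and in NN-Astro, NN-OPC, NN-ODC and NN-VLMC at 5.05%, 5.34%, 5.02% and 7.80%, below the share of Slc17a7. Gad2, a GABA synthesis enzyme of interneurons, was at 12.7%, 7.19%, 16.3% and 18.8% of its neuronal level in those 4 types, again above the shares of Oprm1, and at 8.37% in NN-MGC. The Oprm1 level in those 4 types could not be told apart from free RNA. Ipcef1, the overlapping gene, was at 76.5 CPM in NN-MGC, its second highest level after Exc-ENT (101 CPM), and its part in the Oprm1 counts of NN-MGC was not tested.

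Oprd1 had another pattern, with its highest levels in an interneuron type and in Exc-Gpc6. Of the listed MGE interneuron markers, Sst and Pvalb were highest in Inh-MGE, but Lhx6 was higher in Inh-Lamp5 (79.5 CPM) than there (67.3 CPM). Inh-MGE had 74.2 and 73.1 CPM of Oprd1 in B6 and 68.5 and 65.2 CPM in D2 (70.2 ± 4.15, n = 4). Exc-Gpc6 had 55.4 and 47.7 CPM in B6 and 72.6 and 68.2 CPM in D2 (61.0 ± 11.5). These ranges overlapped, and both types lay above all others, the next being Exc-ENT (25.5 ± 3.45). Exc-Cdh12, Inh-CGE and Exc-CA1-Camk2d followed at 20.9, 19.7 and 17.4 CPM, and Exc-CA1-Galntl6, Exc-CA1-Fras1 and Exc-DG at 8.15, 6.49 and 5.63 CPM. In Inh-Lamp5, where Oprm1 was second highest, Oprd1 had 2 counts in all (0.595 CPM), in Exc-CA3 17 counts over the libraries (0.727 CPM), and in CR-CR none. Inh-MGE held 34.2% of the Oprd1 counts with 5.30% of the nuclei.

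Oprk1 was near the detection limit. Its level was highest in Inh-MGE, with 15 and 18 counts in B6 and 9 and 7 in D2 (3.35 ± 1.18 CPM), or 2.99 counts per 100 nuclei (95% exact Poisson interval 2.21 to 3.96, for counting error only). Inh-Lamp5 (2.52 CPM), Exc-ENT (1.80 CPM) and Inh-CGE (1.40 CPM) followed on 8, 30 and 11 counts, and no neighbours in this order differed beyond their spread. It had 0 counts in Exc-DG, NN-MGC, Exc-Cdh12, CR-CR and NN-VLMC, which in Exc-DG allows a level of up to 0.0775 CPM (3 counts of the total). Exc-CA1-Galntl6 held 24 counts, almost all in B6. In the smaller types a level of 0 could not be told from lack of depth.

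Oprl1 was the flattest of the 4 across neurons and highest in NN-OPC, the oligodendrocyte precursors. NN-OPC had 12.2 and 25.7 CPM in B6 and 18.8 and 21.7 CPM in D2 (19.6 ± 5.66). Its range overlapped that of the next type, Exc-Cdh12 (3.86 to 17.5 CPM). The excitatory and inhibitory types lay between 5.19 CPM (Exc-DG) and 11.4 CPM (Exc-Cdh12), the range of each overlapping that of the next, and NN-ODC, NN-MGC, NN-Astro and NN-VLMC lay between 0.941 and 3.25 CPM. Oprl1 in NN-OPC was at 268% of its level over all neurons, whereas Oprm1 was at 5.34% and Oprd1 at 5.49% there.

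The 4 receptors were only loosely alike across cell types. Pearson correlations of mean log2(CPM + 1) between pairs of receptors were 0.353 to 0.532 over 17 cell types, which share libraries and differ in depth. Among 17139 symbols, the pattern most like that of Oprm1 was that of Ipcef1 (r = 0.938), the gene on its opposite strand, followed by Gm48893, Gm15155, Slf2 and Ptchd1 (r = 0.828 to 0.797). Oprd1 was most like Gm19585 (0.925), Gm20098 (0.874), Pitpnm3 (0.871), Slc27a2 (0.860) and Arhgef15 (0.842). Oprk1, on few counts, was most like Htr2a (0.879), a serotonin receptor, then Lhfpl5, Tmx2, Fbxw9 and BC030500 (0.872 to 0.846). Oprl1 was most like Rap1gap (0.950), a GTPase activator of Rap1, and its antisense gene Rap1gapos (0.907), then Asic1, Plppr5 and Myo5a (0.901 to 0.891).

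The strains were compared first over all nuclei, with the counts of all cell types of a library summed and fitted in edgeR across 25728 symbols. The p-values weigh a difference against the spread between libraries, 2 per strain, as edgeR models it over all symbols. Oprm1 was at 128 and 140 CPM in B6 and 111 and 112 CPM in D2, so both D2 libraries lay below both B6 libraries. It was lower in D2 by a log2 fold change of -0.31 ± 0.07 (SE; adjusted p = 0.0021, edgeR). Oprd1 was at 12.7 and 12.8 CPM in B6 and 17.2 and 15.8 CPM in D2, again with no overlap, and was higher in D2 by 0.33 ± 0.10 (adjusted p = 0.0124, edgeR). Oprk1 was at 1.04 and 0.797 CPM in B6 (56 and 45 counts) and 0.537 and 0.558 CPM in D2 (28 and 24 counts), lower in D2 by a log2 fold change of -0.78 ± 0.27 (adjusted p = 0.0283, edgeR). Oprl1 was at 7.23 and 7.48 CPM in B6 and 6.66 and 6.90 CPM in D2, and its log2 fold change of -0.16 ± 0.12 did not pass (adjusted p = 0.296, edgeR).

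So 3 of the 4 receptors were called, where 46.7% of all symbols tested passed the same threshold of 0.05 (higher in D2 for 30.7% and lower for 16%), as did 31.9% of the symbols with counts in both strains. The number called is therefore read against a large background. The median log2 fold change was 0.09 for all symbols and 0.01 for those with counts in both strains. The Oprd1 call was lost with DESeq2 (adjusted p = 0.0641) and without D2 library 2 (log2 fold change 0.23, adjusted p = 0.159, edgeR), and the Oprk1 call with DESeq2 (adjusted p = 0.286) and in edgeR without B6 library 2 (0.196), D2 library 2 (0.12) or D2 library 3 (0.114). The Oprm1 call held in each alternative with a test. With equal weight per cell type in place of the sum of counts, the mean differences of log2(CPM + 1) were -0.47 for Oprm1, 0.17 for Oprd1 and -0.073 for Oprk1, with no test. The mix of cell types differed between libraries. D2 library 2 had the largest shares of Inh-MGE (6.12% of nuclei) and Exc-Gpc6 (4.94%), the types highest in Oprd1. The part of the mix in the sums over all nuclei was not tested.

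Within cell types, 37 of the 68 pairs of a receptor and a cell type had enough counts to be tested, and 13 were called, 9 lower and 4 higher in D2 (5 were called in DESeq2). Without B6 library 2, B6 library 3, D2 library 2 or D2 library 3, edgeR called 9, 8, 9 and 6. Oprm1 was tested in 15 types and lower in D2 in 8 of them, with none higher. The share of all symbols called lower was 12.3% in Exc-CA1-Fras1, 14.1% in Exc-CA1-Galntl6, 7.4% in Exc-CA1-Camk2d, 8.79% in Exc-Gpc6, 11.6% in Exc-ENT, 5.61% in Inh-Lamp5, 11.7% in NN-Astro and 7.3% in NN-OPC. Oprd1 was tested in 9 types and higher in D2 in 4, where the share of all symbols called higher was 22.2% (Exc-DG), 16.1% (Exc-CA1-Fras1), 20.9% (Exc-CA1-Galntl6) and 10.9% (Exc-Gpc6). Oprk1 was tested in 2 types and lower in 1, where the background is the 14.1% of Exc-CA1-Galntl6, and Oprl1 was called in none of 11. Over the 15 types in which a receptor was tested, the share of symbols called in either direction was highest in Exc-DG (36%), Exc-CA1-Galntl6 (35%), Exc-CA3 (32.1%), Exc-CA1-Fras1 (28.5%) and Exc-ENT (28%). It was 26.2% in NN-Astro, 21% in Inh-MGE, 19.7% in Exc-Gpc6, 19.4% in Exc-CA1-Camk2d, 19% in NN-ODC and 16.2% in NN-OPC, and lowest in Inh-CGE (15.1%), Inh-Lamp5 (12.1%), NN-MGC (10.4%) and Exc-Cdh12 (8.44%).

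**Figure D2:**
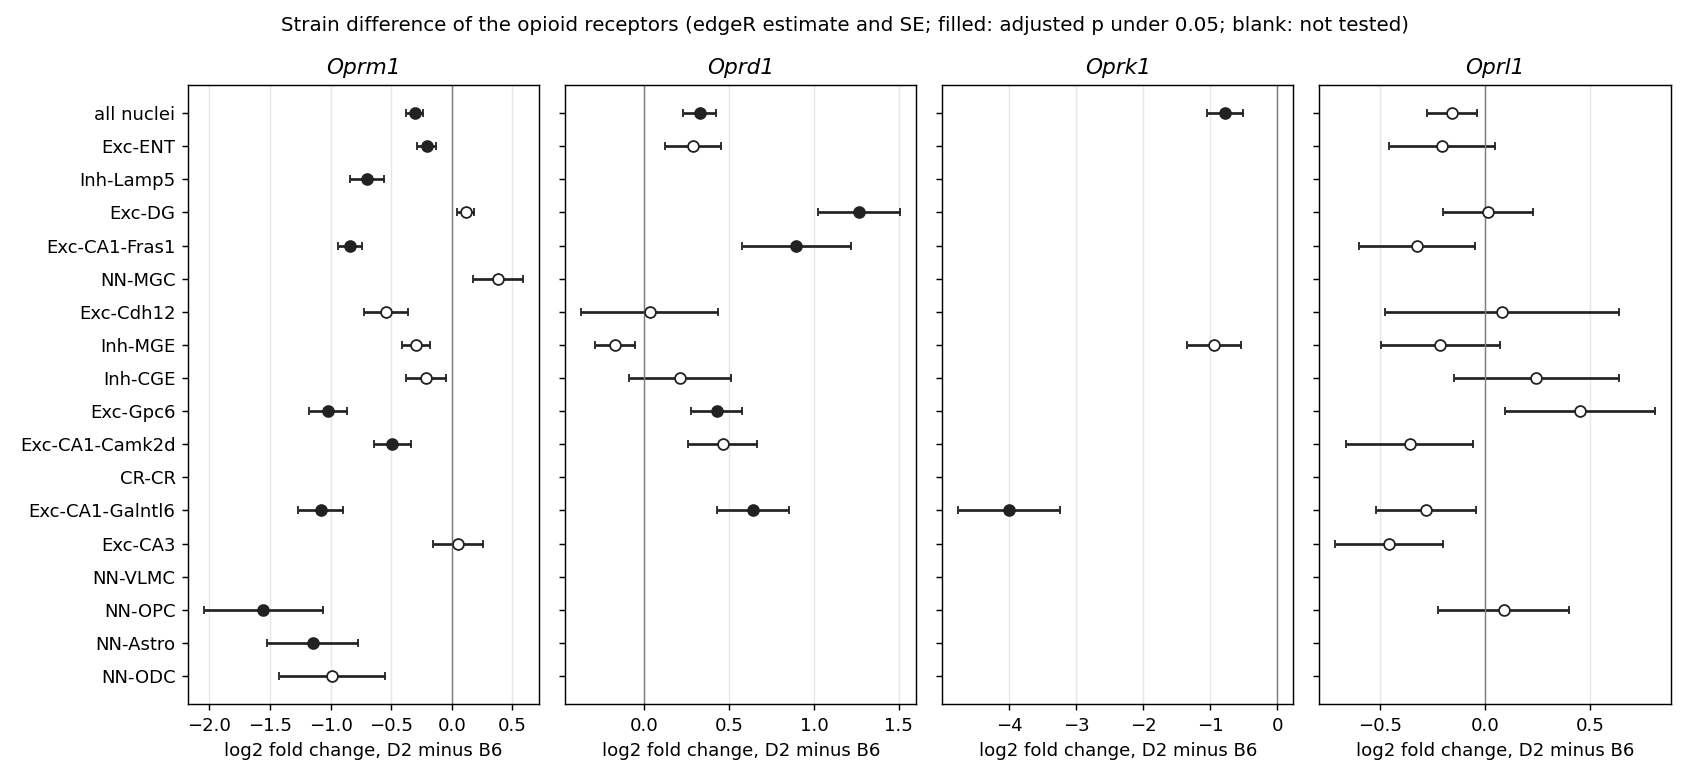
Log2 fold change of each receptor between strains (D2 minus B6, x axis) over all nuclei and in each cell type, with 1 SE. Filled points passed an adjusted p under 0.05 in edgeR, and types left blank had too few counts to be tested. Oprm1 lies below 0 in CA1 types, Exc-Gpc6 and Inh-Lamp5 and near 0 in Exc-DG and Exc-CA3, and Oprd1 is farthest above 0 in Exc-DG (1.26).

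The Oprm1 calls that held under each alternative were those in Exc-CA1-Fras1, Exc-CA1-Galntl6, Exc-Gpc6 and Inh-Lamp5. In Exc-CA1-Fras1 it was at 203 and 235 CPM in B6 and 120 and 137 CPM in D2 (log2 fold change -0.84 ± 0.10, adjusted p = 3.3e-07, edgeR). In Exc-CA1-Galntl6 it was at 21.4 and 31.5 CPM in B6 and 12.3 and 13.1 CPM in D2 (-1.08 ± 0.18, adjusted p = 1.81e-04, edgeR). Neither pair of strains overlapped, and the D2 libraries were close to each other.

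Exc-Gpc6 had 73.6 and 93.7 CPM in B6 and 43.5 and 41.6 CPM in D2 (-1.02 ± 0.16, adjusted p = 3.05e-06, edgeR), and Inh-Lamp5 had 320 and 369 CPM in B6 and 230 and 205 CPM in D2 (-0.70 ± 0.14, adjusted p = 4.34e-04, edgeR). These 4 calls held under all 9 alternatives that were fitted. In Exc-ENT, the type with the highest level, the change was small (-0.20 ± 0.08, adjusted p = 0.0483, edgeR). That call was lost under 6 of 9 alternatives, the replicate block among them (adjusted p = 0.0891, edgeR), and without B6 library 3 (0.217), D2 library 2 (0.197) or D2 library 3 (0.107). In Exc-CA1-Camk2d (-0.49 ± 0.16, adjusted p = 0.0449, edgeR) 6 of 9 alternatives also lost it, including those without B6 library 3 (0.182), D2 library 2 (0.4) or D2 library 3 (0.187).

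Oprm1 was not called in Exc-DG, where 201 and 220 CPM in B6 stood against 231 and 234 CPM in D2 (0.11 ± 0.07, adjusted p = 0.233, edgeR), nor in Exc-CA3 (0.05 ± 0.21), Inh-MGE (-0.29 ± 0.11, adjusted p = 0.0846, edgeR), Inh-CGE (-0.21 ± 0.17), Exc-Cdh12 (-0.54 ± 0.18, adjusted p = 0.0981, edgeR) or NN-ODC (-0.99 ± 0.44). In NN-MGC the strains overlapped (0.38 ± 0.21, adjusted p = 0.302, edgeR). With B6 library 2 left out it passed in NN-MGC (0.73, adjusted p = 0.0247, edgeR), and without B6 library 3 in Exc-Cdh12 (-0.66, adjusted p = 0.0252, edgeR). It was called lower in NN-Astro (-1.15 ± 0.37, adjusted p = 0.0189, edgeR) and NN-OPC (-1.55 ± 0.49, adjusted p = 0.0144, edgeR) at the low levels described above. Slc17a7 was lower there too, going from 61.8 and 58.4 CPM in B6 to 45.2 and 35.7 CPM in D2 in NN-Astro and from 56.1 and 39.4 CPM to 46.5 and 28.1 CPM in NN-OPC, where its strains overlapped. The part of free RNA in these calls was not tested. The NN-Astro call was lost under 4 of 9 alternatives, with DESeq2 (adjusted p = 0.338), with no filter on low counts (0.129) and without B6 library 2 (-0.39, adjusted p = 0.640) or D2 library 3 (0.148). The NN-OPC call was lost under 5 of 9, with DESeq2 (adjusted p = 0.530) and without any 1 of the 4 libraries (0.067 to 0.332).

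The strain difference of Oprm1 itself differed between cell types. A test of all cell type by strain terms over the 17 types, with library as a block, gave F = 6.54 (adjusted p = 1.38e-07, edgeR), and 14.6% of 21050 symbols were called by it. Over the 11 neuron types alone Oprm1 was also called (adjusted p = 1.97e-06, edgeR), where 7.37% of symbols were. The same test was passed by Oprd1 (F = 3.45, adjusted p = 0.0017, edgeR) and not by Oprk1 (adjusted p = 0.322) or Oprl1 (adjusted p = 0.989).

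Ipcef1 had the sign of Oprm1 in most types tested for both genes, but did not move with it in every type. The log2 fold changes had opposite signs only in Exc-CA1-Camk2d (0.38 for Ipcef1, -0.49 for Oprm1) and Exc-Cdh12 (0.23 and -0.54). Inh-Lamp5 (-0.53 and -0.70), Exc-ENT (-0.19 and -0.20) and NN-MGC (0.64 and 0.38) were among those with the same sign. Ipcef1 was not called in any of these named types. Over all nuclei the level of Ipcef1 was 30.2 ± 2.99 CPM in B6, against 26.7 ± 0.0215 CPM in D2 (SD, n = 2; log2 fold change -0.22 ± 0.08, adjusted p = 0.0501, edgeR). It was lower in D2 in Exc-CA1-Fras1 (-0.59) and Exc-Gpc6 (-0.90), where Oprm1 was lower too, and also in Inh-MGE (-1.11, adjusted p = 8.30e-05, edgeR) and Inh-CGE, where Oprm1 was not called. In Exc-CA1-Galntl6, where Oprm1 averaged 26.5 CPM in B6 against 12.7 CPM in D2, Ipcef1 was at 3.23 and 2.94 CPM (-0.18 ± 0.32, adjusted p = 0.711, edgeR). In Exc-DG Ipcef1 was higher in D2 (0.33 ± 0.12, adjusted p = 0.0389, edgeR). Which share of the Oprm1 counts came from the overlap was not tested.

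Oprd1 rose in D2 in Exc-DG, from 2.87 and 3.61 CPM in B6 (30 and 41 counts) to 6.55 and 9.50 CPM in D2 (59 and 75 counts). The strains did not overlap, the log2 fold change was 1.26 ± 0.24 (adjusted p = 8.37e-04, edgeR), and the call held under all 9 alternatives. It was also called higher in Exc-CA1-Fras1, at 4.58 and 4.07 CPM in B6 and 7.11 and 10.2 CPM in D2 (0.90 ± 0.32, adjusted p = 0.0384, edgeR), and in Exc-CA1-Galntl6, at 6.15 and 6.35 CPM in B6 and 8.88 and 11.2 CPM in D2 (0.64 ± 0.21, adjusted p = 0.0276, edgeR). The Exc-Gpc6 call (0.43 ± 0.15, adjusted p = 0.0397, edgeR) was lost under 7 of 9 alternatives.

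The first of these 2 CA1 calls was lost under 5 of 9 alternatives, with DESeq2 (adjusted p = 0.416), over symbols of both strains (0.0543) and without B6 library 2 (0.0729), B6 library 3 (0.132) or D2 library 3 (0.298). The second was lost under 3 of 9, with DESeq2 (adjusted p = 0.290) and without B6 library 2 (0.0656) or D2 library 3 (0.186). In Exc-Gpc6 the call was lost without B6 library 3 (0.285), D2 library 2 (0.278) or D2 library 3 (0.0594), and with the replicate block (0.0626). In Inh-MGE, the type with the highest level, Oprd1 was not called, and the estimate had the other sign (-0.17 ± 0.12, adjusted p = 0.359, edgeR). In both Exc-CA1-Fras1 and Exc-CA1-Galntl6, then, Oprm1 was called lower and Oprd1 higher in D2.

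Oprk1 was called lower in Exc-CA1-Galntl6, on 12 and 11 counts in B6 and 1 and 0 in D2 (adjusted p = 5.21e-04, edgeR). The ratio of D2 to B6 was 0.0528, with a 95% exact interval of 0.00128 to 0.325 that covers counting error only, and DESeq2 did not call it (adjusted p = 0.0811). In Inh-MGE, where Oprk1 was highest, 4.25 and 4.49 CPM in B6 stood against 2.21 and 2.46 CPM in D2, without overlap, but the difference did not pass (-0.94 ± 0.40, adjusted p = 0.115, edgeR). Oprl1 ranged in log2 fold change from -0.46 (Exc-CA3) to 0.45 (Exc-Gpc6) over its 11 tested types, with 0 called in edgeR and 0 at an unadjusted p under 0.05 there, and 0 in DESeq2.

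Chromatin at the receptor genes was measured by snATAC-seq, with peaks taken in each gene and 2 kb around it. There were 52 such peaks: 41 at Oprm1, 8 at Oprd1, 2 at Oprl1 and 1 at Oprk1. All 4 genes had a peak at a start site. The Oprl1 start site (chr2:181712998-181715905) was the most open, with 28.3 ± 0.0628 CPM in B6 against 29.3 ± 0.299 CPM in D2 (SD, n = 2), and the Oprk1 start site (chr1:5588151-5589323) was at 1.95 ± 0.0661 and 1.58 ± 0.0609 CPM. The peak at the start of Oprd1 (chr4:132143459-132145063) was at 9.01 ± 1.35 and 10.1 ± 0.108 CPM. None of these 3 was called over all nuclei (adjusted p = 0.0999 to 0.395, edgeR), and the Oprd1 peak passed without B6 library 3 (0.00382).

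Across cell types, accessibility at the Oprd1 start site was highest in Inh-MGE and Exc-Gpc6 (28.6 and 20.8 CPM), the types with the highest Oprd1 transcript, and lowest among neurons in Exc-CA3 (3.75 CPM). Inh-Lamp5, with an Oprd1 transcript level of only 0.595 CPM, had 7.39 CPM at the start site, close to Exc-CA1-Galntl6 (7.32 CPM). Accessibility at the Oprk1 start site was highest in Inh-MGE (6.79 CPM), which also had the highest Oprk1 transcript level. At the main Oprm1 start site (chr10:6788244-6789196, overlapping a coding exon) the order was different from that of the transcript, with Inh-MGE, Inh-Lamp5 and Inh-CGE at 15.3, 14.7 and 13.1 CPM above Exc-ENT at 8.70 CPM. This peak had 376 and 461 counts in B6 and 553 and 676 in D2 over all nuclei, and was higher in D2 (log2 fold change 0.34 ± 0.10, adjusted p = 0.0127, edgeR), in the direction opposite to the transcript. The call was lost with DESeq2 (adjusted p = 0.123) and without B6 library 2 (0.176), D2 library 2 (0.0952) or D2 library 3 (0.0803). Within types the peak was called higher in Exc-CA3 (1.17 ± 0.23) and Exc-DG (0.61 ± 0.16), where the transcript was not called. Of the neuron types with a transcript called lower, the peak estimate was negative in Exc-Gpc6 (-0.57 ± 0.32), Exc-CA1-Camk2d (-0.41 ± 0.29) and Exc-CA1-Fras1 (-0.11 ± 0.32). It was positive in Exc-CA1-Galntl6 (0.46 ± 0.27), Exc-ENT (0.37 ± 0.21) and Inh-Lamp5 (0.20 ± 0.30), and the peak was called in none of these types. At the upstream start site (chr10:6758856-6759504) a weaker peak, at 1.16 ± 0.300 CPM in B6 against 1.42 ± 0.127 CPM in D2 and the least open of the 5 start site peaks, was not called (0.32 ± 0.16, adjusted p = 0.246, edgeR), but it passed with B6 library 3 left out (0.61, adjusted p = 0.0298, edgeR).

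Of the 41 Oprm1 peaks, 10 were called over all nuclei, 6 higher and 4 lower in D2, where 11% of 300819 peaks were called (5.49% higher and 5.53% lower). None of the 11 peaks at the other receptors was called in this edgeR test, against 1 at an unadjusted p under 0.05 and 0 in DESeq2. With DESeq2 3 of the Oprm1 peaks were called, and leaving out B6 library 2, D2 library 2 or D2 library 3 left 5, 4 and 4. The 3 with the largest change were called in each of the alternatives, and all lay in introns of Oprm1.

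**Figure D3:**
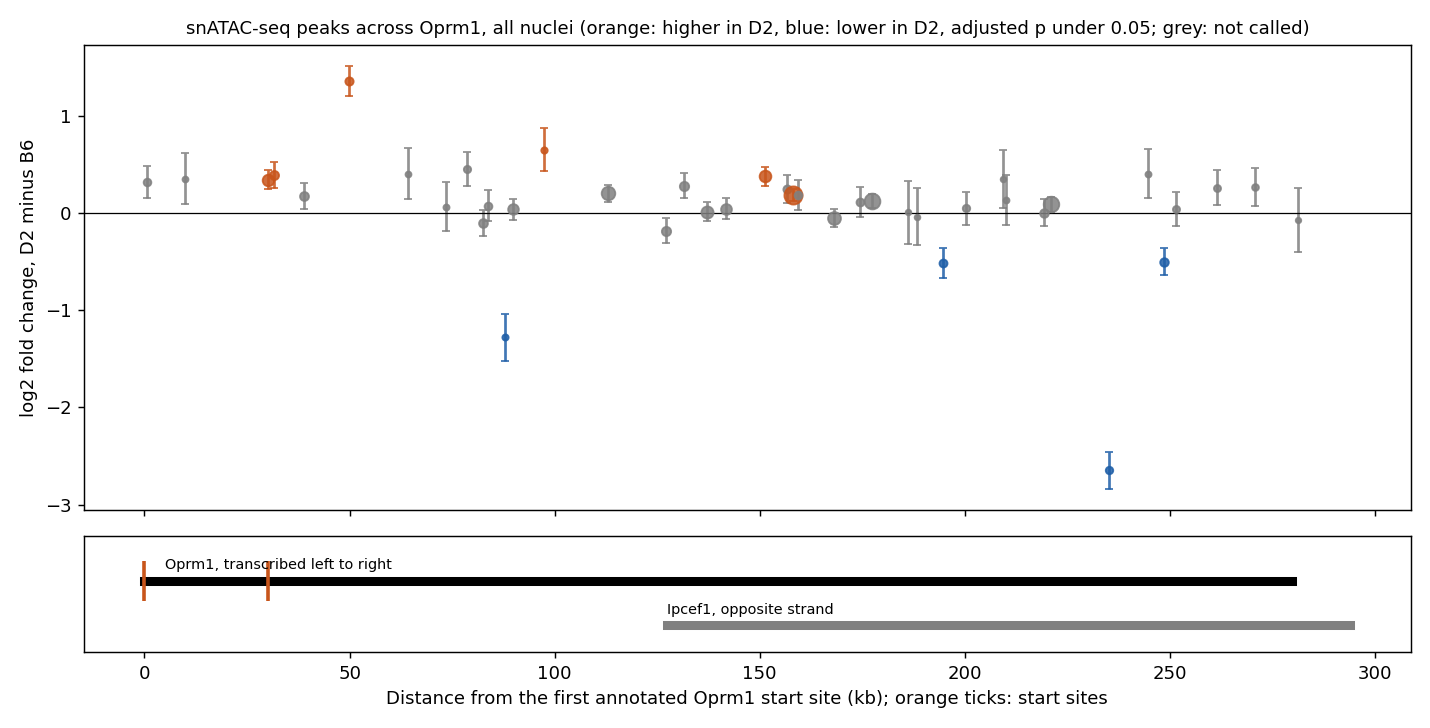
Log2 fold change between strains (D2 minus B6, with 1 SE) of the 41 snATAC-seq peaks at Oprm1 over all nuclei, against distance from the first annotated start site in kb, with larger points for higher mean CPM. Of the peaks, 6 are higher in D2 (orange) and 4 lower (blue), grey points were not called, and the lower panel shows Oprm1 with its start sites and Ipcef1 on the opposite strand.

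The peak that changed most was chr10:6993260-6993922, 235 kb from the first start site, in an intron of Oprm1 and within Ipcef1. It had 191 and 182 counts in B6 and 30 and 39 in D2, and was lower in D2 by a log2 fold change of -2.65 ± 0.19 (adjusted p = 1.72e-19, edgeR). The peak chr10:6807962-6808593, 49.8 kb from the first start site, went the other way, with 79 and 99 counts in B6 and 255 and 274 in D2 (1.36 ± 0.15, adjusted p = 2.65e-11, edgeR). At chr10:6846171-6846574, 87.9 kb from the first start site, there were 74 and 68 counts in B6 and 27 and 41 in D2 (-1.28 ± 0.24, adjusted p = 3.83e-05, edgeR). In none of the 3 did the strains overlap. Of the other peaks within the naming rule, chr10:6855678-6856255 was higher in D2 (0.65 ± 0.22, adjusted p = 0.04, edgeR) and chr10:6952696-6953644 lower (-0.51 ± 0.15, adjusted p = 0.0145, edgeR), and neither was called with DESeq2 (adjusted p = 0.455 and 0.223). The first was also lost without any 1 of the 4 libraries (0.0792 to 0.229), and the second without B6 library 3, D2 library 2 or D2 library 3 (0.0824 to 0.127).

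The middle 300 bases of these 3 peaks are shown because they are where the strains differed most, as GRCm38 reference sequence on the plus strand, which is that of B6 and not of D2. They run from chr10:6993442-6993741, chr10:6808128-6808427 and chr10:6846223-6846522, and capitals mark matches to the same motifs on either strand.
Oprm1 peak at 235 kb: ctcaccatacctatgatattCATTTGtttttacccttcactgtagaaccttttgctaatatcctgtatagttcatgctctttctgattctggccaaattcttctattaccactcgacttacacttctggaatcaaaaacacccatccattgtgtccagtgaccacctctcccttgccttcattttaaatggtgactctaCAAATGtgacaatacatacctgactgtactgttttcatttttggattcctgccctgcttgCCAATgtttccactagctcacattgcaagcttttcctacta
Oprm1 peak at 49.8 kb: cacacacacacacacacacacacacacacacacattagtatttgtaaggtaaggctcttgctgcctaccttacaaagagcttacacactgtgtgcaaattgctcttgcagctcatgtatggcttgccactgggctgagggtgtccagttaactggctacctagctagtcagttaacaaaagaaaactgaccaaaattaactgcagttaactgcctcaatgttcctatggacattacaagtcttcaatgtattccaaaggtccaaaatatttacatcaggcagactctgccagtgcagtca
Oprm1 peak at 87.9 kb: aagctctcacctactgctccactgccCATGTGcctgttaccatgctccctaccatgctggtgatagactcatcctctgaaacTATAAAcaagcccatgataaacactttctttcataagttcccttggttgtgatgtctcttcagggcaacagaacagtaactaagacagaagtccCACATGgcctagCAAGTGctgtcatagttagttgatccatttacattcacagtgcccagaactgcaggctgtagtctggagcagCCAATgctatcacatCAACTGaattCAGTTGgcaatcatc
The first held 2 E-boxes and 1 CCAAT, the second none of the motifs, and the third 5 E-boxes, 1 CCAAT and 1 TATAAA. Over the middle 300 bases of 244837 peaks, E-boxes were in 84.9%, CCAAT in 34.6% and TATAAA in 16.9%. They were 39.7%, 43.3% and 45.7% G or C, with 1, 0 and 0 CG dinucleotides.

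The peak at 235 kb was at 3.15 and 3.07 CPM in B6 and 0.276 and 0.252 CPM in D2 in Exc-DG (-3.50 ± 0.34), and at 2.42 and 2.98 CPM against 0.116 and 0.297 CPM in Exc-CA1-Galntl6 (-3.59 ± 0.41). It was called lower in 5 of the 7 types tested, which also included Exc-CA1-Camk2d (-3.07 ± 0.60), Exc-CA1-Fras1 (-2.73 ± 0.47) and Exc-CA3 (-1.52 ± 0.44). Exc-ENT and Inh-MGE were the other 2, where B6 had 3 and 5 counts and 2 and 4 counts.

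The peak at 49.8 kb was called higher in D2 in 4 of 9 types tested, at 0.384 and 0.358 CPM in B6 and 3.47 and 2.52 CPM in D2 in Exc-CA1-Galntl6 (3.01 ± 0.35), and with log2 fold changes of 2.98 ± 0.68 in Exc-CA1-Fras1, 1.55 ± 0.32 in Exc-CA1-Camk2d and 1.16 ± 0.23 in Exc-CA3. In Exc-DG it was not called (0.31 ± 0.34, adjusted p = 0.747, edgeR). The share of all peaks called was 2.18% in Exc-CA1-Fras1, 2.56% in Exc-CA1-Camk2d, 5.03% in Exc-CA3, 5.26% in Exc-CA1-Galntl6 and 5.97% in Exc-DG. Side by side, the 3 CA1 types had a lower Oprm1 transcript, a lower peak at 235 kb and a higher peak at 49.8 kb in D2, while Exc-DG had the lower peak at 235 kb and no called change of the transcript or of the peak at 49.8 kb. The transcript call of Exc-CA1-Camk2d is the one lost under 6 of 9 alternatives. In all, 6 Oprm1 peaks were called in Exc-DG (5 higher and 1 lower in D2), 6 in Exc-CA1-Galntl6 (3 and 3), 5 in Exc-CA3 (3 and 2) and 2 each in Exc-CA1-Camk2d and Exc-CA1-Fras1 (1 and 1). Exc-CA3 had both peak calls and no called change of the transcript (0.05 ± 0.21). Exc-Gpc6 and Inh-Lamp5 had a lower transcript with neither peak called, the peak at 49.8 kb being at 0.87 ± 0.43 in Exc-Gpc6 (adjusted p = 0.417, edgeR) and the other 3 pairs having too few counts to be tested.

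**Figure D4:**
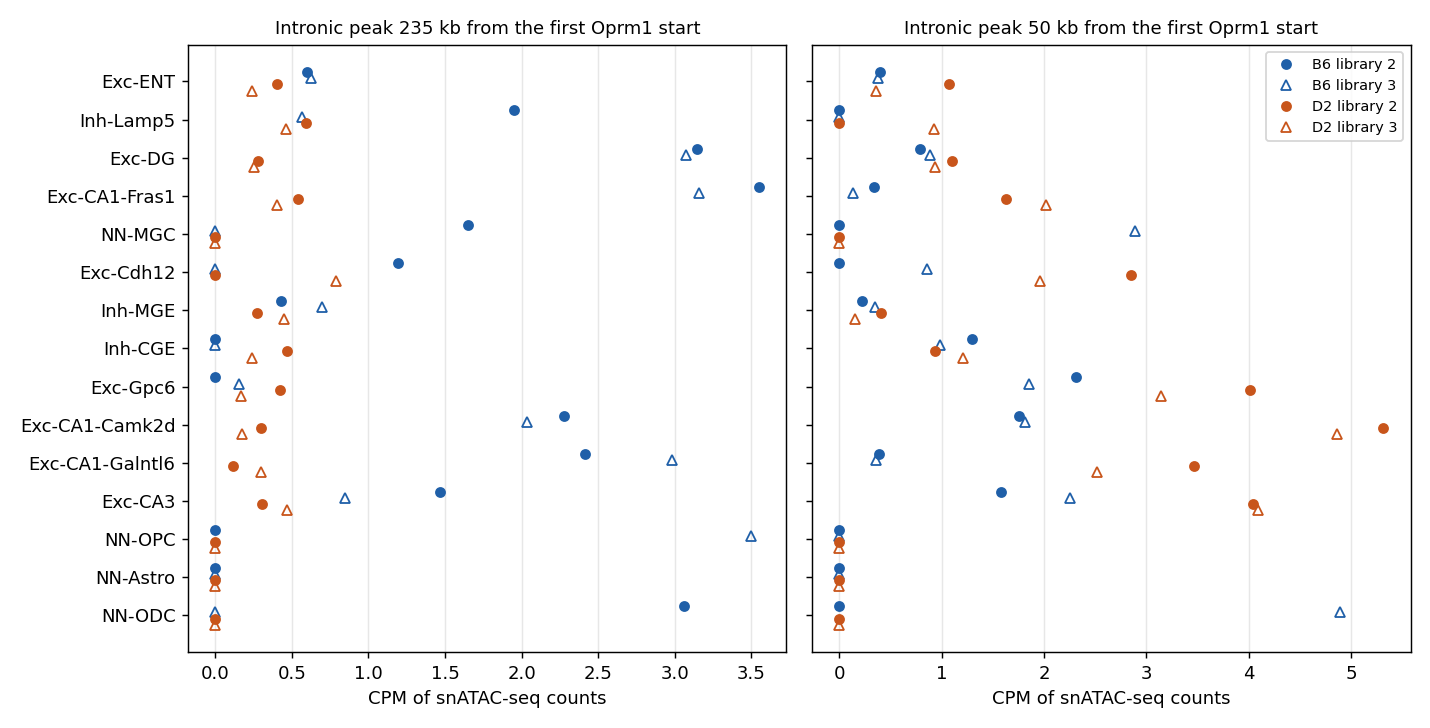
Accessibility (CPM of snATAC-seq counts) of the intronic Oprm1 peaks at 235 kb and at 49.8 kb from the first start site in the 15 cell types, 1 point per library, blue for B6 and orange for D2. In Exc-DG and the CA1 types the peak at 235 kb is lower in both D2 libraries than in both B6 libraries, the peak at 49.8 kb is higher in D2 in the CA1 types and Exc-CA3, and the isolated high points of the NN types are 1 or 2 counts.

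Beyond Oprm1, a single Oprd1 peak was called in each of 2 types: chr4:132111336-132111748 was lower in D2 in Exc-CA1-Galntl6 (-1.12 ± 0.36, adjusted p = 0.0371, edgeR) and chr4:132131610-132132215 higher in Exc-DG (0.45 ± 0.14, adjusted p = 0.0288, edgeR), the type in which the Oprd1 transcript rose most. No Oprk1 or Oprl1 peak was called in any type.

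The other genes of the opioid system were read from the same fit of all nuclei. Of 39 listed genes, all tested, 3 were higher and 10 lower in D2. Their median log2 fold change was -0.03, against 0.09 over all symbols and 0.01 over those with counts in both strains. The background is the 46.7% of all symbols called, or the 31.9% of those with counts in both strains. The opioid peptides come from 4 precursors, none of which was called over all nuclei in edgeR (1 at an unadjusted p under 0.05, and 0 in DESeq2): Penk (proenkephalin; 0.30 ± 0.17, adjusted p = 0.165), Pdyn (prodynorphin; -0.38 ± 0.26, 0.254), Pomc (the endorphin precursor; 0.51 ± 0.22, 0.0796) and Pnoc (the nociceptin precursor; 0.37 ± 0.20, 0.142), all edgeR. Penk was called higher without B6 library 2 (0.0339) or D2 library 2 (0.0369), Pnoc without B6 library 2 (0.00301) or D2 library 2 (0.0204) and with all symbols of 1 count or more (0.029), and Pomc only with all symbols of 1 count or more (0.0385).

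Among cell types, Penk was highest in Inh-CGE, at 62.5 and 63.1 CPM in B6 and 39.1 and 50.4 CPM in D2, and was called lower there (-0.52 ± 0.17, adjusted p = 0.0495, edgeR). That call was lost under 6 of 9 alternatives. They were DESeq2 (adjusted p = 0.478), symbols of both strains (adjusted p = 0.0694, edgeR) and the fits without 1 of the 4 libraries. Without 1 library the sign was kept, at log2 fold changes of -0.68 to -0.35. In Exc-DG Penk was instead higher in D2, at 2.68 and 2.38 CPM in B6 and 5.44 and 8.49 CPM in D2 (1.42 ± 0.27, adjusted p = 7.03e-04, edgeR), and so it was in Exc-CA1-Camk2d (2.10 ± 0.53, adjusted p = 0.0124, edgeR), where the D2 libraries were at 5.95 and 14.3 CPM and the call was lost without D2 library 3 (1.41, adjusted p = 0.342, edgeR). In Exc-DG the delta receptor and the precursor of its enkephalin ligands were both called higher in D2. Pnoc was highest in Inh-Lamp5 (73.6 ± 20.1 CPM), Pdyn in Exc-DG (3.12 ± 0.564 CPM), where its strains overlapped, and Pomc had at most 3.68 CPM (NN-VLMC, on 5 counts).

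Downstream of the receptors, Rgs9, a protein that speeds the switching off of G proteins, changed most, from 24.0 ± 1.00 CPM in B6 to 11.2 ± 0.0261 CPM in D2 (-1.14 ± 0.09, adjusted p = 6.79e-08, edgeR). Of the 7 RGS genes, Rgs7 was lower too (-0.44 ± 0.07), while Rgs4 (0.54 ± 0.13) and Rgs20 were higher. Of 9 effectors, 4 were lower and 1 higher in D2. Cacna1a, the pore of P/Q-type calcium channels, fell from 593 ± 38.7 CPM in B6 to 403 ± 25.2 CPM in D2 (-0.60 ± 0.08, adjusted p = 1.51e-05, edgeR), Kcnj5, a potassium channel subunit, was lower at under 1 CPM (-0.74 ± 0.29, adjusted p = 0.0498, edgeR), and Kcnj9, another such subunit, was higher (0.54 ± 0.07, adjusted p = 2.23e-05, edgeR).

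Of 6 receptor kinases and arrestins, 2 were lower in D2, Grk3 (-0.34 ± 0.07) and Arrb2. Of 4 peptide processing genes, 2 were lower, the convertase Pcsk1 (-0.43 ± 0.09, adjusted p = 8.44e-04, edgeR) and Cpe. No G protein alpha subunit (0 of 5) and no peptide-degrading enzyme (0 of 4) was called in edgeR, with 0 of both groups at an unadjusted p under 0.05 and 0 called in DESeq2. Among the 8 called genes with the largest change, only Kcnj5 lost its call in any alternative. It did so with DESeq2 (adjusted p = 0.405), with the replicate block (adjusted p = 0.0712, edgeR) and without each of the libraries (log2 fold change -0.88 to -0.65). The alternatives for Rgs20, Arrb2 and Cpe are not given here.

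**Figure D5:**
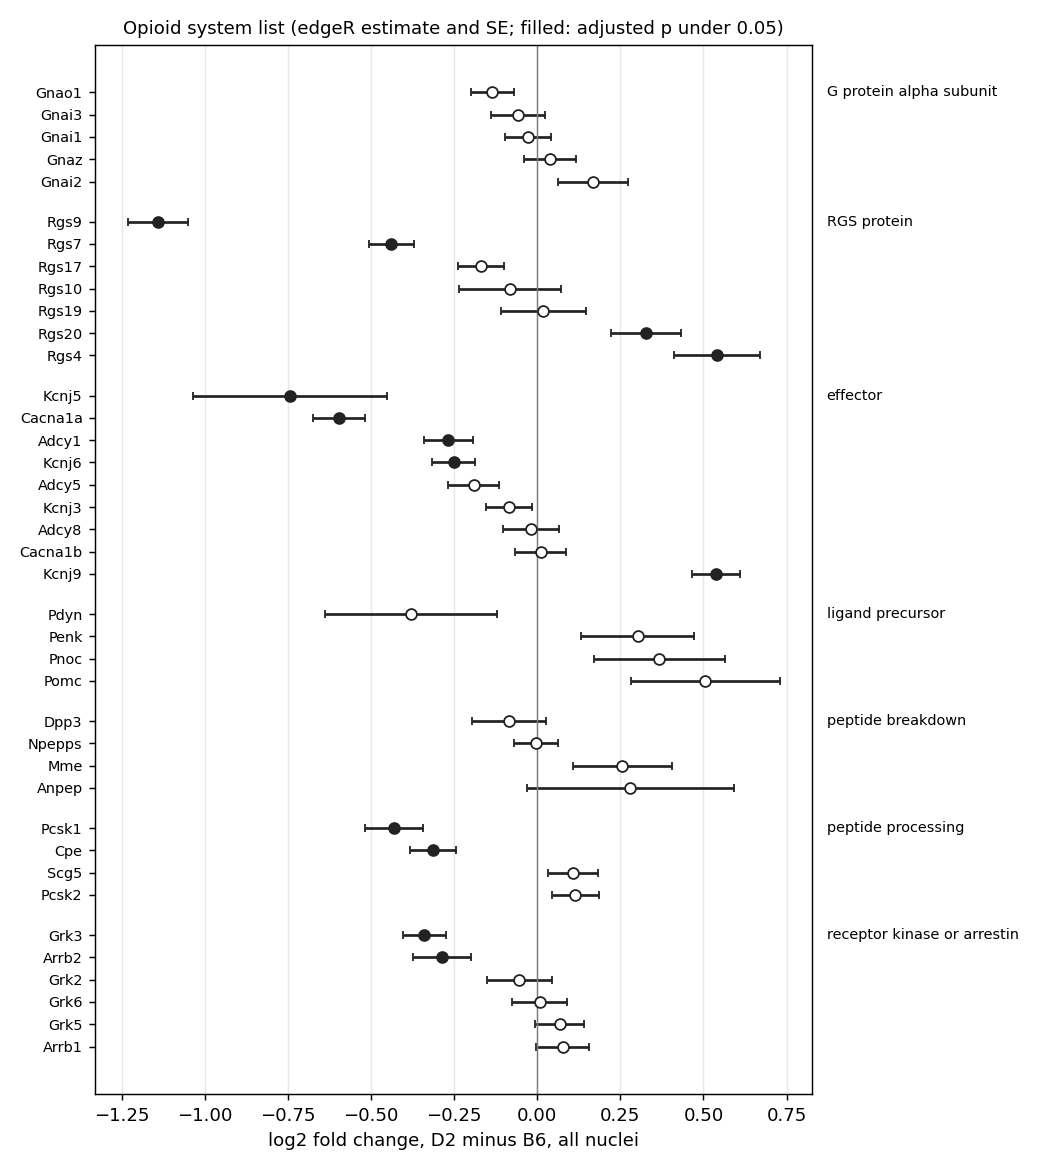
Log2 fold change (D2 minus B6, all nuclei, with 1 SE) of the 39 other genes of the opioid system, grouped by role, with filled points for an adjusted p under 0.05 in edgeR. Rgs9 lies farthest below 0 (-1.14), and all 4 ligand precursors and all 5 G protein alpha subunits have open points.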

How the data were processed

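The authors made the snRNA-seq counts with Cell Ranger 6.0.2 (intronic reads kept) and the snATAC-seq counts with Cell Ranger ATAC 2.0.0. B6 reads were aligned to mm10 and D2 reads to mm10 carrying D2 single-nucleotide variants. Doublets were removed by the authors, cell types were assigned by clustering and integration (Seurat 4.0.5), and raw counts were summed over nuclei per cell type and library. The deposited tables hold these raw counts, with no normalization. Peaks were called per sample by the authors and merged. Whether counting used strand, and the release of the gene annotation, are not given in the sources used here.

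From the deposited counts, CPM and edgeR 4.0.16 quasi-likelihood tests (R 4.3.3, TMM, filterByExpr for symbols, at least 10 counts for peaks, two-sided, Benjamini-Hochberg over all features of a fit, adjusted p under 0.05) were computed, for all nuclei and per cell type. A joint fit over 17 types with library as a block tested whether the strain difference varied. DESeq2 1.42.0 was an alternative, with RLE factors, no filter, symbols of both strains, a replicate block, equal weight per cell type, and each library left out. The fits were tested on simulated data, where 95% to 99% of 200 changed features were recovered, depending on the comparison. Those features were changed 2-fold or more, and at 2-fold 91% to 98% were recovered. Recovery of smaller differences was not tested. With 2 libraries against 2, a permutation of labels cannot go below p = 0.33, so tests of single values were not used.

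The columns of the tables number the libraries 2 and 3, and the labels number the replicates 1 and 2, so each column was placed by strain and nothing here rests on which labelled replicate it is. Each library pools animals, so the p-values rest on the spread between these libraries, as edgeR models it over all features of a fit. Intervals and limits of a count of 0 (3 counts) cover counting error only. Named were all 4 receptors, up to 8 called genes of the opioid list with the largest change and the 4 ligand precursors, 5 symbols most like each receptor, and peaks at start sites with up to 5 called peaks of the largest change. Ipcef1, Rgs20, Arrb2, Cpe and the single peaks called within cell types were named after their values were seen. The members, lists and tests were chosen with earlier results of these data known. Peaks were taken within 2 kb of each gene. Sequences are from RefSeq and the reference genome (GRCm38). Methylation samples were not analysed here.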

Additional observations from a re-analysis of the deposited data

Results flagged for a closer look

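The strain difference of Oprm1 varied between the 17 cell types beyond the spread of the libraries (F = 6.54, adjusted p = 1.38e-07, edgeR), and over neuron types alone (adjusted p = 1.97e-06, edgeR). Among neuron types tested, the log2 fold change ran from -1.08 in Exc-CA1-Galntl6 to 0.11 in Exc-DG. Among all 15 types tested it ran from -1.55 in NN-OPC to 0.38 in NN-MGC, but the NN-OPC value rests on 44 counts, a level that could not be told apart from free RNA, and its call was lost without any 1 library. The strain difference of Oprd1 varied too (F = 3.45, adjusted p = 0.0017, edgeR), from -0.17 in Inh-MGE to 1.26 in Exc-DG among 9 types. The overlapping gene Ipcef1 passed the same test as well (adjusted p = 4.87e-08, edgeR), and its part in the Oprm1 result was not tested.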

How the results depend on the processing

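Over all nuclei, the direction of each receptor was kept in all alternatives. DESeq2 called 1 of 4 receptors in place of 3, with log2 fold changes of 0.32 for Oprd1 and -0.80 for Oprk1, and equal weight per cell type gave -0.47 for Oprm1, 0.17 for Oprd1 and -0.073 for Oprk1. Leaving out 1 library gave -0.36 to -0.25 for Oprm1, 0.23 to 0.40 for Oprd1, -0.97 to -0.58 for Oprk1 and 1 to 3 receptors called. Of pairs of a receptor and a cell type, 13 were called in edgeR, 5 in DESeq2 and 6 to 9 without 1 library. Over all symbols and cell types there were 48620 calls in edgeR and 31962 in DESeq2. Of the locus peaks, 10 were called in edgeR, 3 in DESeq2 and 4 to 10 without 1 library.

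No sign that turned belonged to a call: Oprm1 in Exc-CA3 (-0.20 to 0.23 without 1 library), Oprd1 in Inh-CGE (-0.19 to 0.77) and Exc-Cdh12 (-0.55 to 0.47, and -0.040 in DESeq2), and Oprl1 in NN-OPC (-0.32 to 0.74), Exc-DG (-0.056 to 0.080, and -0.0019 with no filter) and Exc-Cdh12 (-1.59 to 0.59, and -0.14 in DESeq2). The causes were not tested.

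Same-numbered libraries did not deviate together (correlation 0.00276 in snRNA-seq and -0.0567 in snATAC-seq), so the numbers pair nothing. With the library number as a replicate block, 3, 11, 12 and 10 receptors, receptor and type pairs, listed genes and peaks were called, in place of 3, 13, 13 and 10, and in Exc-Cdh12 Oprd1 was at -0.00071 and Oprl1 at -0.31. Depth limited Oprk1 most, with 153 counts in all.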

Other observations

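Of 16 genes within 1 Mb of Oprm1, 14 were tested over all nuclei and 3 were called higher in D2: Mtrf1l, a mitochondrial release factor (log2 fold change 0.45), Ulbp1 (1.73, at 0.206 CPM in B6) and Ginm1 (0.30). Katna1, a microtubule-severing subunit, was lower (-0.24, adjusted p = 0.0499, edgeR). Over all symbols tested, 30.7% were called higher and 16% lower. Of the 21475 symbols with counts in both strains, 3321 were called higher and 3530 lower. The background so depends on the symbols taken, and the counts near Oprm1 were not tested against it. Of the other genes of the opioid system, 38 could be tested for a strain difference that varied between cell types, and 18 passed (47.4%), where 14.6% of all symbols did. Over neuron types alone 12 of the 38 passed, where 7.37% of all symbols did. The listed genes and the background were not matched in level, and the part of level in these shares was not tested. With all types, the highest values were those of Cacna1a (F = 25.9), Rgs9 (F = 9.74), Rgs20 (F = 8.25) and Rgs17 (F = 5.89). With neuron types alone they were those of Rgs17 (F = 9.73), Rgs9 (F = 9.62), Penk (F = 6.53) and Cacna1a (F = 6.38).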
